A study of Mus musculus with 7 samples.

Results

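SOX2 binding was set against control in 1 line of mouse striatal cells. All 26433 SOX2 binding events listed for the STHdhQ7 line were taken, out of 137595 events listed for SOX2, FRA2 and JUND in the series, and each was described by its SOX2 IP reads against its control reads. The SOX2 group is STHdhQ7 chromatin, genotype HdhQ7/Q7, precipitated with an R&D antibody to Sox2, and the IgG group is the same chromatin precipitated with a Santa Cruz IgG. FRA2 and JUND in STHdhQ7 served as further readouts at the same positions, and the IgG of STHdhQ111 (HdhQ111/Q111) was used for its control reads alone. Which library served as control is not named in the deposited headers. It is taken to be IgG, as no other control is labelled. Both lines were derived from the striatum of embryos at E14 of 129SvEv/CD1 background, were used at fewer than 15 passages, were grown at 33 °C and were held at 39 °C for 2 days beforehand to stop division. Each group is 1 sample in which replicates 1 and 2 were pooled, so no spread between replicates can be given and no test of SOX2 against control was made. No RNA was measured, so the striatal identity of the cells could not be checked against marker genes.

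SOX2 is a transcription factor of the SRY-related family that binds the minor groove of DNA through an HMG box and bends it. It is known for keeping neural progenitors of the embryonic brain undifferentiated, and it often binds enhancers beside partner factors. FRA2 and JUND are subunits of AP-1, a dimer that binds enhancers and promoters in many cell types. In the ChIP-seq assay, DNA fragments bound by the protein are enriched by the antibody (the IP), and an IgG control shows which places yield fragments without a specific antibody. A binding event is a single position to which the event caller assigned a set of reads. No genome or gene annotation of mm9, the build of the deposited positions, was used here, so events are given by position and not by gene, and no sequence is shown.

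The SOX2 library held 1193914 IP reads in listed events, and 113909 control reads were assigned to the same events after scaling. These sums cover listed events and are not library sizes. Control values in the SOX2 table lay on multiples of 1.08 reads, and those of the FRA2 and JUND tables on multiples of 1.20 and 1.15. After division by these steps, the Q7 control agreed within 0.25 reads at 75.4% of the 2362 positions where a SOX2 and a FRA2 event were listed within 10 bp, and at 79.1% of the 2596 such positions of SOX2 and JUND. The 3 Q7 control columns therefore hold largely the same reads at shared positions, and the folds of the 3 proteins share their control.

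Every listed SOX2 event had more IP than control reads, which is what the caller selected. The median event held 33 IP reads (quartiles 25 and 49, range 20 to 899.8) against 4.3 control reads (quartiles 2.2 and 5.4, range 0 to 189). The median log2 of IP over control, computed with 0.5 reads added to both, was 3.06, a fold of 8.33 (95% binomial interval of the median 8.24 to 8.39, over events). The quartiles of the log2 were 2.40 and 3.89, and the whole range was 1.16 to 9.70. From the 5th to the 95th percentile the log2 ran from 1.71 to 5.56.

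A 4-fold excess of IP over control was reached by 23248 of the 26433 SOX2 events (88.0%), an 8-fold excess by 13722 (51.9%) and a 16-fold excess by 5889 (22.3%). These percentages are also the background for the shares of SOX2 events past these folds given below. FRA2 events marked present in Q7 reached these folds in 91.7%, 62.2% and 33.8% of 47982 cases, and JUND events in 88.6%, 50.7% and 20.2% of 35209 cases. The median log2 was 3.06 for SOX2, 3.41 for FRA2 and 3.01 for JUND, while the mean control was 4.31, 4.40 and 4.42 reads. The median event held 33 IP reads for SOX2, 41 for FRA2 and 33 for JUND. The tables list different numbers of events, and with each reduced to its 26433 events with the most IP reads the median log2 was 3.06 for SOX2, 4.06 for FRA2 and 3.22 for JUND. SOX2 was thus below FRA2 both ways, while its order with JUND depended on the number of events. Each table was selected on its own IP over the shared control, and those of FRA2 and JUND list both lines together. These differences were therefore not tested.

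**Figure D1:**
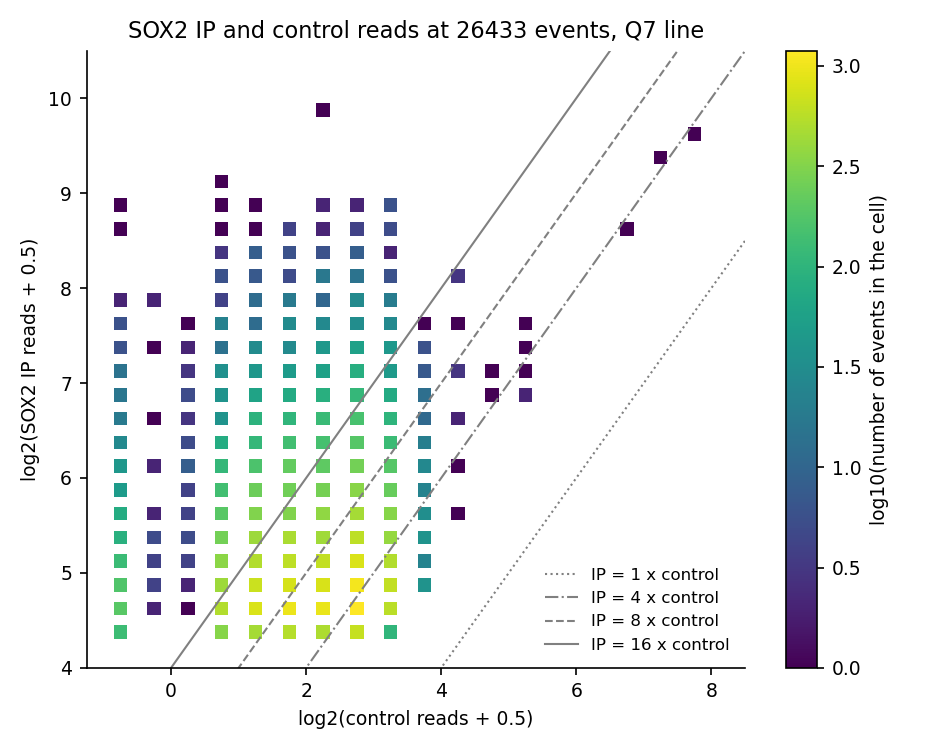
SOX2 IP reads (vertical, log2 of reads + 0.5) against control reads (horizontal, same scale) at the 26433 events, as squares coloured by the number of events in each cell of the grid, with lines where IP is 1, 4, 8 and 16 times control. Control reads have quartiles of 2.2 and 5.4, 88.0% of events lie at or above the 4-fold line, and the 5 with 40 or more control reads are at the right, near the 4-fold line.

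Low control reads limit how well a single fold is known. No control read was listed at 927 SOX2 events (3.51%), which held 20 to 414.6 IP reads with a median of 31. Against a floor of 3 control reads, 3.24 after scaling, these events were 6.17-fold to 128-fold above control. The floor leaves out the counting error of the IP reads. A further 11310 events (42.8%) had 1 to 3 control reads or a fraction of 1. At the other end, 861 events had a deposited −log10 q under 2.5, with medians of 23 IP and 7.6 control reads. The lowest listed −log10 q was 2.02, and 14 events had the smallest number of IP reads, 20, against 0 to 6.5 control reads.

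The SOX2 event with the most reads lay at chromosome 15 position 64196010. It held 899.8 IP reads against 3.9 control reads, a 231-fold ratio (95% Clopper-Pearson interval of the read share 81.1 to 766, counting error only). A weaker SOX2 event of 141.2 reads was listed 358 bp away. Chromosome 15 held 2 more of the 10 strongest events. At position 71533704 there were 494 IP reads against 3.5 control reads (141-fold, 51.9 to 742), and the FRA2 and JUND events 7 and 9 bp away were themselves strong, with 876.3 and 384.5 reads. At position 58311993 there were 484.8 IP reads against 7.6 control reads (63.8-fold, 30.9 to 160). All 3 of these chromosome 15 events had another SOX2 event within 500 bp, against 10.2% of all SOX2 events.

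Chromosome 3 gave 2 of the 10 strongest events. At position 19857020 the counts were 515.7 IP and 1.1 control reads, a 469-fold ratio whose interval, 85.4 to 18907, shows how little a single control read fixes it. At position 40998976 they were 509.7 and 7.6 (67.1-fold, 32.5 to 169). These sites differ in their company: FRA2 lay 8 bp from the first with 84.5 reads, and 468 bp from the second with 356 reads.

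The remaining strong events with low control lay on chromosomes 14 and 10. Chromosome 14 position 46792765 had 509.5 IP and 6.9 control reads (73.8-fold, 35.9 to 215). Chromosome 10 position 121341334 had 482.3 IP and 8.2 control reads (58.8-fold, 28.1 to 130.0), with no other SOX2 event within 66646 bp, and JUND 3 bp away. Chromosome 10 position 85563357 had 475.9 IP and 8.3 control reads (57.3-fold, 27.7 to 128). The 8 strong events with under 10 control reads thus had overlapping intervals, with lower bounds of 27.7-fold or more, and their order by fold is not resolved.

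The other 2 of the 10 strongest events were of another kind. At chromosome 17 position 39980343 there were 830 IP against 189 control reads, a 4.39-fold ratio (3.73 to 5.20), and at position 39985205, 4862 bp away, 649.4 against 173.7, a 3.74-fold ratio (3.14 to 4.46). Their intervals lie wholly below the median fold of all SOX2 events, 8.33. They came directly after the strongest event by IP reads and were the 2 highest events by control reads. At the FRA2 event 107 bp from position 39985205, control reads were 65.4 in Q7 and 198.3 in Q111, and at the JUND event 210 bp away they were 14.1 in Q7 and 42.9 in Q111.

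High control reads marked only 3 more SOX2 events. Chromosome 9 position 3023531 had 389 IP against 113.2 control reads (3.44-fold, 2.76 to 4.30). Chromosome 19 position 61275655 had 163 against 41 (3.98-fold, 2.78 to 5.81), and chromosome X position 73844423 had 130.9 against 40 (3.27-fold, 2.26 to 4.86). On chromosomes 19 and X control was as high in the other tables. There 45.6 and 43.9 Q7 control reads stood at the FRA2 and JUND events on chromosome 19, and 42.9 and 41.6 at those on chromosome X. For the chromosome 9 event the nearest FRA2 and JUND events were 381086 and 381090 bp away. The 5 events with 40 or more control reads held 0.489% of all control reads.

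Among events with at least 100 IP reads, the 10 with the largest log2 had 0 or 0.1 control reads, so their order follows IP reads and the pseudocount. Chromosome 3 position 136930909 had 414.6 IP reads against 0 control reads, 128-fold higher by the floor of 3 reads. The lower end of its Clopper-Pearson interval was 104-fold. Chromosome 17 position 67100147 had 432.4 against 0.1, 133-fold higher by the same floor, with a lower end of 108-fold. Both also carried strong AP-1 events within 50 bp, with 348 and 342.6 FRA2 reads and 174 and 320.7 JUND reads, again at 0 to 1.2 Q7 control reads. The other 8 held 181 to 248 IP reads and were 55.9-fold to 76.5-fold higher than control by the floor. The lower ends of their intervals were 45.0-fold to 61.8-fold. They lay on chromosomes 3, 4, 6, 7, 11 and 13, with 2 each on chromosomes 7 and 13.

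One of these 8 stood apart in its partners. At chromosome 11 position 100863372 SOX2 had 197 IP reads, while the FRA2 event at the same base had 22 and the JUND event 32 bp away had 24. Chromosome 6 position 122708955 showed the other extreme, with 181 SOX2 reads, 366 FRA2 reads at the same base and 115 JUND reads 7 bp away. At events of like SOX2 reads, the AP-1 reads thus differed widely.

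The 5 events with the lowest log2 had 30 or 32 IP against 13 or 14 control reads, ratios of 2.29 to 2.31 with intervals from 1.15 to 4.96. They lay on chromosomes 10 (positions 97329292 and 77699799), 19 (25149364), 15 (58765036) and 4 (53465008). AP-1 was strong beside some of them: FRA2 had 233 reads 25 bp from the chromosome 4 event and 208 reads 139 bp from the chromosome 19 event. No FRA2 or JUND event lay within 7 kb of chromosome 10 position 77699799.

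SOX2 events were unevenly spread over chromosomes. Chromosome 19 held 19.7 events per Mb (1206 events over 61.3 Mb, the last position listed in any table), chromosome 15 held 18.7 (1935 events) and chromosome 10 held 15.8 (2049 events). The lowest were chromosome X with 2.31 per Mb (385 events), chromosome 14 with 4.91 (612) and chromosome 18 with 6.15 (556). Between the extreme autosomes, 19 and 14, the density differed 4.01-fold (3.63 to 4.42), against 2.85-fold (2.65 to 3.06) for FRA2 and 4.09-fold (3.75 to 4.47) for JUND events of Q7. Strong SOX2 events followed the same outline: those with at least 100 IP reads came to 1.58 per Mb on chromosome 15, 1.27 on chromosome 19 and 1.21 on chromosome 10, against 0.0901 on chromosome X and 0.254 on chromosome 18.

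Relative to FRA2, SOX2 events were most numerous on chromosome 3, with 67.2 SOX2 events per 100 FRA2 events of Q7, followed by chromosome 19 with 67.0 and chromosome 10 with 61.8. They were fewest on chromosomes 18 (44.4), X (45.5) and 7 (46.6). Relative to JUND, chromosome 3 again came first, with 93.6 SOX2 events per 100 JUND events, ahead of chromosome 13 with 84.1. Its density per Mb, 12.8, was the fifth in order. These ratios depend on how many events each table lists and were not tested.

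Control reads differed by chromosome in parallel with event density. The mean SOX2 event on chromosome 15 had 6.08 control reads, on chromosome 10 it had 5.27 and on chromosome 19 it had 4.92. On chromosomes 18, 14 and 7 the means were 2.85, 3.11 and 3.24. The quartiles met at a single value, with 4.3 to 7.6 control reads on chromosome 15 and 1.1 to 4.3 on chromosome 18. Across the 20 chromosomes the Spearman rho of events per Mb with mean control reads was 0.88, a description of 1 pair of libraries in which both values come from the same events. Chromosome X departed from it, with the lowest density but 3.59 control reads.

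Median IP reads did not show the same contrast, while stronger events did so in part. The IP reads at which each chromosome's top decile began ran from 62 on chromosome X to 92.2 on chromosome 15. Their Spearman rho with events per Mb was 0.65, against 0.40 for the medians. The median SOX2 event held 36 IP reads on chromosome 15, 33 on chromosome 18 and 30 on chromosome X, and the other medians lay between 31 and 33.2, close to the floor of 20 reads that all events share. The log2 of IP over control ran opposite to density. It was highest on chromosome 18, with a median of 3.59 (3.45 to 3.79), then chromosome 14 with 3.45 (3.35 to 3.62) and chromosome 12 with 3.36 (3.24 to 3.45). It was lowest on chromosome 15 with 2.63 (2.57 to 2.67), chromosome 10 with 2.76 (2.71 to 2.82) and chromosome 19 with 2.84 (2.78 to 2.93). In folds, the median SOX2 event was 12.0 times control on chromosome 18 and 6.19 times control on chromosome 15.

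The share of events past 4-fold followed. It was 96.4% on chromosome 18 (536 of 556), 95.9% on chromosome 14 and 95.2% on chromosome 12, against 77.9% on chromosome 15 (1508 of 1935), 81.5% on chromosome 10 and 82.9% on chromosome 19, where all SOX2 events gave 88.0%. Events with no control read made up 9.53% on chromosome 18 and 1.03% on chromosome 15, against 3.51% of all SOX2 events. At a fixed number of IP reads, 30 to 40, the mean control was still 6.21 on chromosome 15 (444 events) and 2.82 on chromosome 18 (122 events). Across the 20 chromosomes the log2 medians had a Spearman rho of -0.99 with mean control reads, which are part of the ratio.

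**Figure D2:**
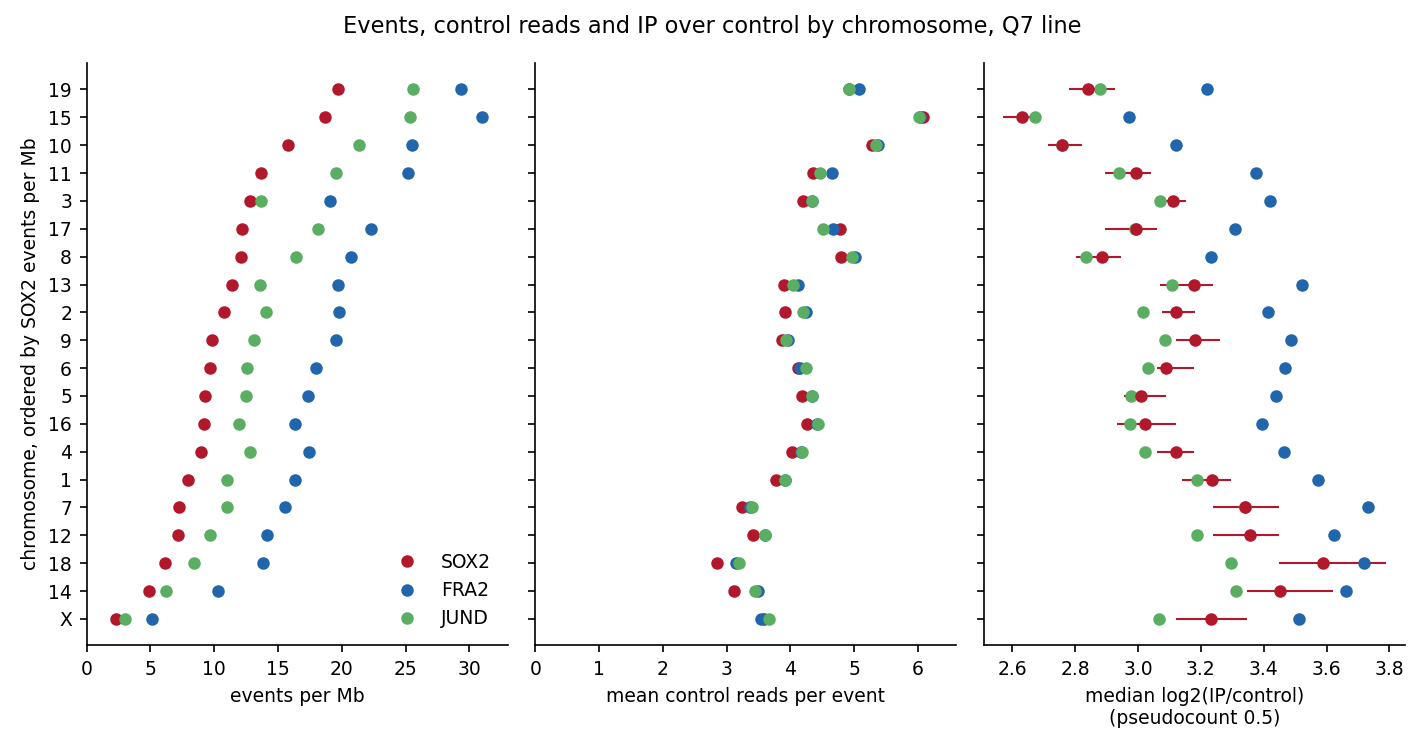
Events per Mb (left), mean control reads per event (middle) and median log2 of IP over control (right) for each chromosome, ordered by SOX2 density, for SOX2, FRA2 and JUND events of the Q7 line; bars are 95% binomial intervals of the SOX2 medians over events. Chromosomes 15, 10 and 19 combine high density, high control reads and low log2 values, and chromosomes 18 and 14 the reverse, for all 3 proteins.

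The chromosome pattern of control reads was not particular to SOX2. At FRA2 events of Q7 the same control averaged 6.03 reads on chromosome 15 and 3.15 on chromosome 18, and at JUND events 6.02 and 3.19. In another library, the control of Q111 at the FRA2 positions, the means were 8.69 on chromosome 15 and 4.11 on chromosome 18. Across the 20 chromosomes the SOX2 table's Q7 control and this Q111 control had a Spearman rho of 0.92. The FRA2 medians of log2 IP over control were 2.97 on chromosome 15 and 3.72 on chromosome 18, and those of JUND 2.67 and 3.30, with the control shared.

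Within chromosomes the control was more even than between them. In 251 bins of 10 Mb with at least 20 SOX2 events, events with 40 or more control reads left out, 76.6% of the variance of the bin means lay between chromosomes. The 11 bins of chromosome 15 ranged from 5.24 to 6.64 control reads and the 9 bins of chromosome 18 from 2.43 to 3.44, so that no bin of one reached a bin of the other. The widest range within a chromosome was on chromosome 16, from 3.10 to 5.04.

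Spacing between SOX2 events was described by the distance to the nearest other SOX2 event, with a median of 6711.5 bp. Another SOX2 event lay within 1 kb of 5817 events (22.0%), against 25.5% of FRA2 and 25.2% of JUND events of Q7 to their own kind. No other SOX2 event lay within 100 kb of 1598 events (6.05%), a class that includes the lone event on chromosome M. Chromosomes 19, 15 and 3 had the largest shares within 1 kb (30.8%, 29.5% and 25.8%), and chromosomes X, 7 and 14 the smallest (14.3%, 15.9% and 16.3%). The median distance was 3372 bp on chromosome 19 and 22486 bp on chromosome X.

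Very close neighbours were rare for SOX2. Only 136 SOX2 events (0.515%) had a neighbour within 200 bp, against 2333 FRA2 events (4.86%) and 575 JUND events (1.63%). With each table reduced to its 26433 events with the most IP reads, the shares were 0.515% for SOX2, 5.57% for FRA2 and 1.85% for JUND, and the shares within 1 kb were 22.0%, 19.2% and 21.5%. In steps of 50 bp, SOX2 neighbours were most frequent at 500 to 550 bp (614 events), JUND neighbours at 350 to 400 bp (945) and FRA2 neighbours at 150 to 200 bp (1137). FRA2 and JUND events were listed for both lines together and SOX2 events for Q7 alone, so the lists are not alike. These differences in spacing were not tested.

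Fractional IP reads were nearly confined to close events. Of SOX2 events with a neighbour within 550 bp, 18.1% had a whole number of IP reads (599 of 3316). At 550 to 600 bp all 373 did, and beyond 1 kb 99.8% did (20583 of 20616). The number of SOX2 events dropped at the same distance, with 614 at 500 to 550 bp and 373 at 550 to 600 bp. GPS is known to assign a read in part to more than 1 nearby event, so the values of events closer than 550 bp are not independent.

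The closest SOX2 events held more IP reads and fewer control reads per listed event. The 6 events with a neighbour up to 100 bp away had a median of 134 IP reads, a mean of 1.85 control reads and a median log2 of 6.47 (4.33 to 7.97). In the wider classes the median was 76.8 IP reads at 100 to 200 bp (130 events), 43.9 at 200 to 500 bp (2566), 34.5 at 500 bp to 1 kb (3115), 33 at 1 to 10 kb (9250), 31 at 10 to 100 kb (9768) and 30 beyond 100 kb. Mean control reads were 3.25, 4.01, 4.57, 4.50, 4.24 and 3.74 in the same order. Summed over both members, mutually nearest pairs up to 200 bp apart had a mean of 6.38 control reads. The mean sum was 8.04 at 200 to 500 bp and 9.09 at 500 bp to 1 kb. Whether division of reads between neighbours enters the lower control of close events was not tested. The median log2 was 4.65 (4.42 to 4.91) at 100 to 200 bp and 3.61 (3.54 to 3.68) at 200 to 500 bp. It was 3.06 at 500 bp to 1 kb and 3.13 (3.06 to 3.18) beyond 100 kb. As folds, the medians were 8.33 at 500 bp to 1 kb, 7.97 at 1 to 10 kb, 7.96 at 10 to 100 kb and 8.73 beyond 100 kb.

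Events with a neighbour within 1 kb had a median log2 0.18 above that of events with none within 100 kb (0.09 to 0.30, from the intervals of both medians). This direction depended on the setting. Among events with 30 to 40 IP reads the difference was -0.23 (-0.42 to -0.07). There IP reads are held nearly equal, so the difference follows control reads and does not compare IP. With events closer than 500 bp merged it was -0.06 (-0.18 to 0.04), an interval that spans both directions. In the highest tercile of IP reads (above 41.7), mean control was 4.05 at 200 to 500 bp, 4.93 at 500 bp to 1 kb and 4.15 beyond 100 kb. In the middle tercile these means were 4.07, 4.67 and 3.71. Control was thus highest at 500 bp to 1 kb among these 3 classes, in both terciles, with all chromosomes pooled. At 1 to 10 kb it was close to that, 4.88 and 4.53. In the lowest tercile it was 4.02 at 500 bp to 1 kb and 4.08 at 1 to 10 kb. IP reads were not alike in the highest tercile, with medians of 70.2, 64 and 58 in the 3 classes.

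**Figure D3:**
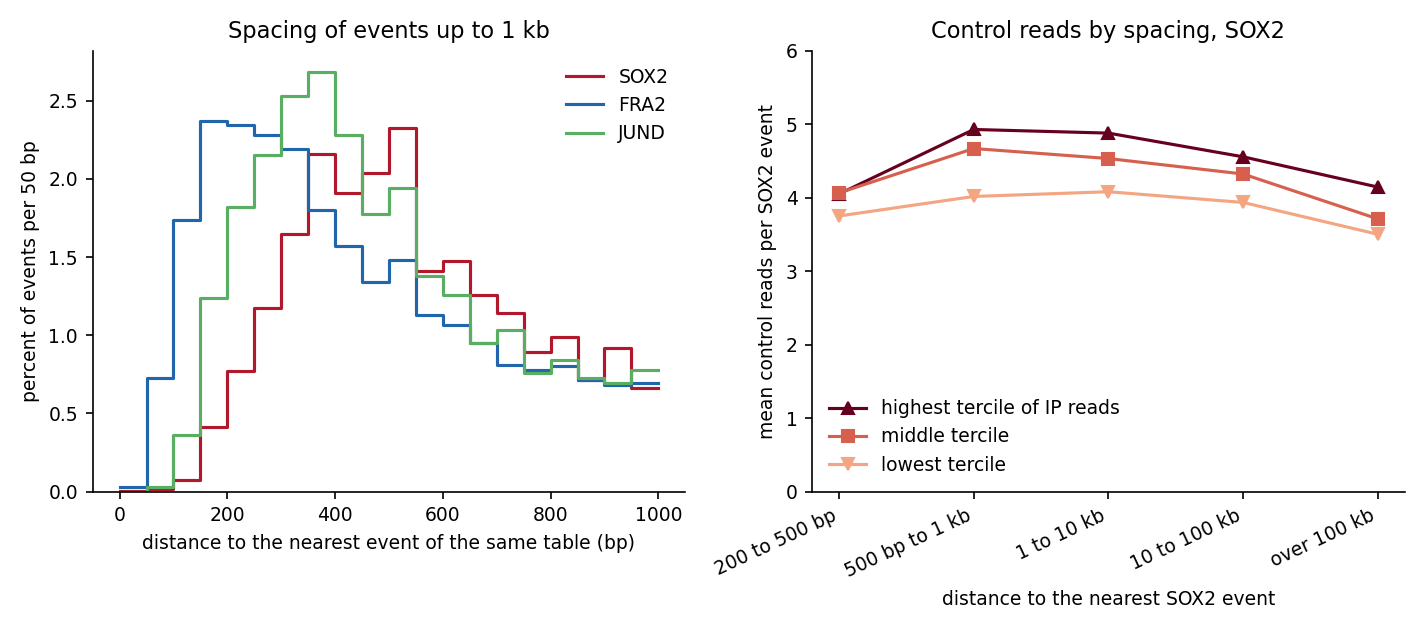
Left, percent of SOX2, FRA2 and JUND events of Q7 in each 50 bp step of distance to the nearest event of the same table. Right, mean control reads of SOX2 events by spacing class, in terciles by IP reads. SOX2 neighbours are nearly absent below 150 bp and peak at 500 to 550 bp, and in each tercile control reads at 500 bp to 1 kb are above those at 200 to 500 bp and beyond 100 kb.

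There were 2702 pairs of mutually nearest events within 1 kb, at a median distance of 508 bp. Sorted within each pair, the stronger member had a median of 57 IP reads and the weaker 30, and the median ratio was 1.60. The sorting alone sets this ratio above 1, and it was not compared with unpaired events. A ratio of at least 2 was found in 956 pairs (35.4%), in 16.2% of the 68 pairs up to 200 bp apart and in 41.0% of the 1242 pairs at 200 to 500 bp. The largest ratio was 17.8. With both members summed, the median log2 was 3.48.

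Longer chains were few. Joining events with gaps of at most 1 kb gave 2679 chains of 2 or more events, which held 5817 events. Of these chains, 2296 were pairs, 328 were triplets, 47 had 4 events and 8 had 5 or more. The longest chain was on chromosome 19, from position 5837848 to 5843561, with 12 events in 5713 bp. Its events held 23.7 to 43.6 IP against 1.1 to 8.4 control reads, around the median of 33 IP reads of all SOX2 events. The sums were 383 IP and 56.2 control reads (6.81-fold). Of the 12 events, 1 had a FRA2 or JUND event within 100 bp, against 67.6% of all SOX2 events. The next chain, chosen after its values were seen, followed it at positions 5845548 to 5850293 with 8 events, 389 IP against 34.7 control reads (11.2-fold), and 7 of the 8 had an AP-1 event within 100 bp. In all, 4 of the 8 chains of 5 or more lay on chromosome 19, which held 4.56% of all SOX2 events.

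The window of 100 kb with the most SOX2 events held both of these chains. Chromosome 19 from 5800000 to 5899999 had 40 SOX2 events, beside 27 FRA2 and 34 JUND events of Q7. Its SOX2 events had a median of 34.2 IP reads and a mean of 5.24 control reads, with a median log2 of 2.72, below that of all events. A second window on chromosome 19, from 9100000 to 9199999, had 22 events and IP reads up to 290. Chromosome 6 from 31000000 to 31099999 had 20 events (median 46.5 IP reads), and chromosome 3 from 107500000 and chromosome 4 from 89100000 had 17 each. Of 9871 windows with an event, 3835 had 1 and 165 had 10 or more. The 1998 events in these 165 windows had a mean of 4.80 control reads and a median log2 of 2.99, against 3.88 control reads and 3.08 for events alone in their window. Median IP reads were 35.3 in these dense windows and 30 for events alone in their window. Events in dense windows thus held more IP and more control reads, and their log2 of IP over control was not higher. Windows of all chromosomes were pooled, and across chromosomes event density and mean control reads rose together (Spearman rho 0.88). Local density and chromosome were not separated here.

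The longest stretches with no SOX2 event lay on chromosomes 14 and X. On chromosome 14 no event was listed between positions 87540262 and 99026088, over 11.5 Mb, where 7 FRA2 and 5 JUND events of Q7 were. On chromosome X the stretches were 11.4 Mb from position 22018523, 9.80 Mb from 74979574, 8.79 Mb from 58003765 and 8.46 Mb from 110307740. They held 6, 8, 2 and 0 FRA2 events and 2, 4, 3 and 0 JUND events. AP-1 events were thus few but listed in 4 of these 5 stretches. Gaps of the assembly and places where reads cannot be aligned uniquely were not marked here.

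Ranked by IP reads, SOX2 events were divided into deciles. The top decile held 79.7 to 899.8 IP reads (median 112) and 29.3% of all SOX2 IP reads, but 11.4% of the control reads. The top 264 events held 6.22% of IP reads and the top 1000 held 15.7%. The lowest decile held 20 to 22 IP reads and 4.77% of all. Where a group ended among events with equal reads, these were divided by position, so neighbouring groups overlap at their edges. The 10 strongest events held 0.490% of IP reads.

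The median log2 was 4.69 in the top decile (25.7-fold) and 3.86 in the second, and it was lower with each further decile down to 2.45 in the ninth, with 2.54 (5.81-fold) in the lowest. IP reads are part of the ratio, so the direction follows from the ranking and is given as a description. In the top decile 99.7% of events were past 4-fold, against 72.4% in the lowest, around the 88.0% of all. Control reads were not part of the ranking. Their mean was 4.91 in the top decile, 4.51 in the second and 4.33 in the sixth, and 3.90 and 3.64 in the lowest 2 deciles. Without the 5 events of 40 or more control reads the top decile had 4.71. Events were listed only where they passed the caller on IP against control, which limits the control reads that an event with few IP reads can have. Nothing is therefore read from the lower control of the lowest deciles.

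**Figure D4:**
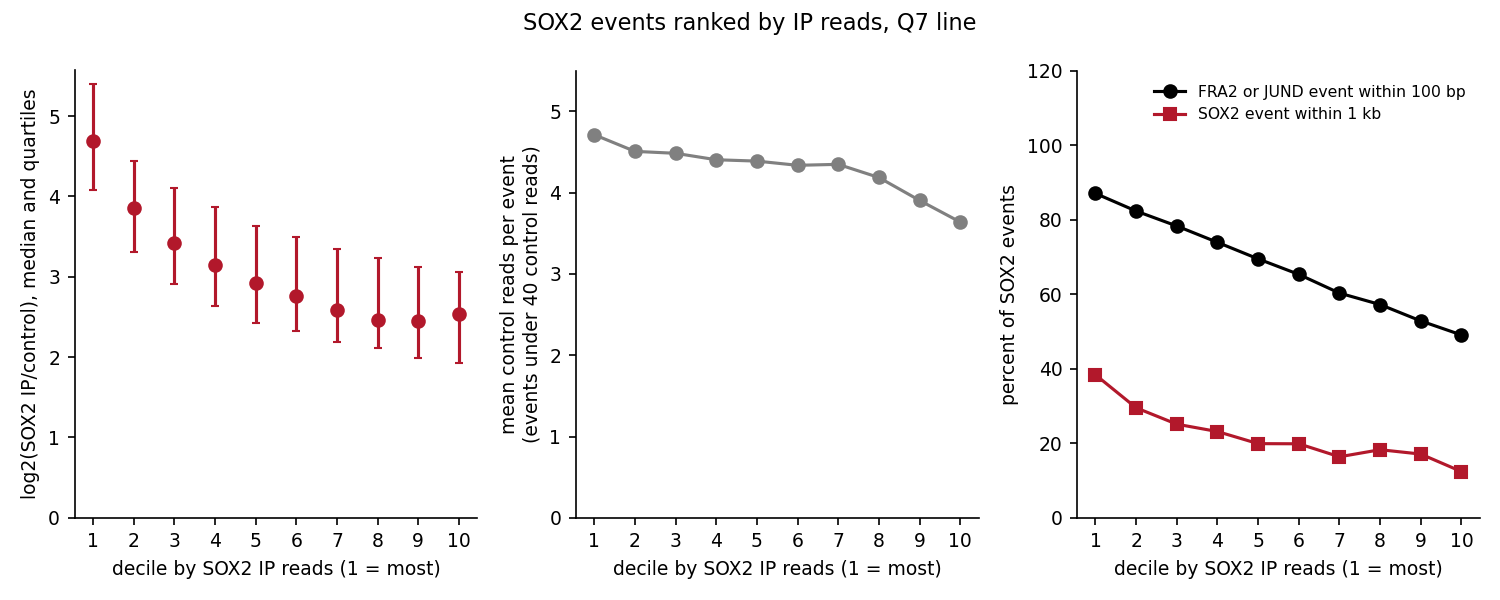
SOX2 events in deciles by IP reads, the strongest at the left: log2 of IP over control (median with quartiles), mean control reads of events with fewer than 40, and the percent with a FRA2 or JUND event of Q7 within 100 bp or another SOX2 event within 1 kb. The log2 medians lie between 4.69 and 2.45, and both percentages are highest in the top decile.

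Strong SOX2 events had closer neighbours of their own kind. Another SOX2 event lay within 1 kb of 38.4% of the top decile, 29.5% of the second, 19.9% of the fifth and 12.4% of the lowest, and the median distance was 2427 bp in the top decile and 10680.5 bp in the lowest. Of the 100 strongest events, 53 had a neighbour within 1 kb, against 22.0% of all SOX2 events. Chromosome 15 contributed 9.84% of the top decile and 5.64% of the lowest, against 7.32% of all SOX2 events. In the deciles between, its share ranged from 5.86% to 8.59%. Spacing and chromosome were not used in the ranking, but division of reads between neighbours within 550 bp enters the IP reads.

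AP-1 binding in the same cells was a readout that the SOX2 ranking did not use. A FRA2 or JUND event marked present in Q7 lay within 100 bp of 17859 SOX2 events (67.6%). The share was 87.0% in the top decile and 49.1% in the lowest, with every decile below the one before it. FRA2 reads at matched sites had a median of 115 in the top decile and 48 in the lowest, and JUND reads 71.5 and 32. By spacing, the share was 83.3% for the 6 SOX2 events with a neighbour up to 100 bp away, 73.8% at 100 to 200 bp, 68.4% at 200 to 500 bp, 66.9% at 500 bp to 1 kb, 68.9% at 1 to 10 kb, 67.1% at 10 to 100 kb and 61.7% beyond 100 kb. These spacing classes also differ in IP reads. In the highest tercile of IP reads the share was 73.6% at 100 to 200 bp, 78.8% at 200 to 500 bp and 84.0% at 500 bp to 1 kb. It was 83.7% at 1 to 10 kb, 81.5% at 10 to 100 kb and 76.0% beyond 100 kb. The middle tercile had 60.8% at 200 to 500 bp and 69.1% at 1 to 10 kb, and the lowest tercile 48.3% and 54.1%. Within each tercile the share at 200 to 500 bp was thus below that at 1 to 10 kb. Chromosome X had the lowest share, 58.7%, and the other chromosomes lay between 64.6% and 70.3%.

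SOX2 events with an AP-1 event within 100 bp had a median of 36 IP reads and a log2 of 3.18 (3.15 to 3.18). Those with none had 28 IP reads and a log2 of 2.80 (2.78 to 2.84). Mean control was 4.32 and 4.30 reads, so the classes differed in IP reads and hardly in control reads. At 30 to 40 IP reads the log2 medians were 2.97 with an AP-1 event and 2.90 with none within 100 bp. With none within 1 kb the median was again 2.97. The 4190 SOX2 events with no FRA2 or JUND event of Q7 within 1 kb had a median of 26 IP and a mean of 4.18 control reads, and 81.5% of them were past 4-fold, below the 88.0% of all SOX2 events.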

How the data were processed

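ChIP-seq reads were aligned with Bowtie 0.12.7 to mm9, per the submitters' processing notes. Events were called with GPS, per the names of the deposited tables. The sources used here give neither its version nor its settings. The authors deposited 1 table per protein, with replicates pooled per the labels. The deposited IP values are expected counts of reads per event, and 89.6% of those for SOX2 were whole. They were rounded to whole reads for fold intervals alone. The deposited control values are a signal, since they are scaled reads: 93.4% of SOX2 control values under 10 lay on multiples of 1.08. The header names no control antibody, and IgG is the only one in the labels. All listed SOX2 events entered the main results, with no cut on the deposited −log10 q-value. It was used to describe the events under 2.5 and, as an alternative setting, to keep those of at least 5. A further 30 deposited value columns were not used. Marks of presence in a line are those of the authors.

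The log2 of IP over control was computed with a pseudocount of 0.5 reads. Because listed events were selected on this contrast, and each group is 1 pooled sample, no p-value was computed. Events past 4-fold were counted. Intervals of medians are binomial (95%) over events, which are not independent, and those of folds are Clopper-Pearson intervals on whole reads. PCR reads are not independent molecules, so intervals and the floor of 3 reads cover counting error only. FRA2 and JUND events were those marked present in Q7, matched to SOX2 within 100 bp. Functions were tested on simulated data. Python 3.11.15, numpy 2.4.6, pandas 2.3.3, scipy 1.17.1 and matplotlib 3.10.9 were used. The named events were the 10 with the most IP reads, the 10 with the largest log2 among those with at least 100 IP reads, the 5 with the most control reads, the 5 with the lowest log2, the 5 densest windows of 100 kb, the longest chain and the 5 longest stretches with no event. For chromosomes the 3 highest and 3 lowest were named. The events and these rules were chosen with earlier results of these data known. No gene was named at a position, because no mm9 annotation was used here.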

Additional observations from a re-analysis of the deposited data

How the results depend on the processing

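In all, 57 values of 9 results were recomputed, 10 of them under settings added after seeing the data. Of these, 26 stayed within the 95% binomial interval, 29 moved outside it and 2 changed sign. No paired analysis was possible because replicates were pooled in each sample, and for the same reason no replicate could be left out.

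The median log2, 3.06, was 2.91 with a pseudocount of 1 and 3.15 with control divided by its step. It was 3.68 over the 15289 events with a −log10 q of at least 5, 3.50 over the 15545 with at least 30 IP reads, and 3.04 with events at 0 control reads set to the floor (added). Events past 4-fold, 88.0%, were 86.3% with the pseudocount of 1, 91.0% with unscaled control, 99.8% at the stricter q and 95.9% with 30 IP reads. At the stricter q the gap between the highest and lowest chromosome medians of the log2 was 0.78 in place of 0.96. The ratio of the highest to the lowest event density among autosomes was 3.29 in place of 4.01. Without chromosome 14 (added) this density ratio over all events was 3.20. Events with a neighbour within 1 kb, 22.0%, were 19.3% at the stricter q, 19.2% with 30 IP reads, 10.2% within 500 bp, 45.4% within 5 kb and 12.7% with events merged at 500 bp (added).

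The log2 of near minus lone events, 0.18, was 0.54 with near set to 500 bp and 0.0091 with 5 kb. It changed sign with events merged at 500 bp (-0.057) and at 30 to 40 IP reads (-0.23), both added. In the first, reads divided between neighbours are summed, and its interval spans both signs. In the second IP reads are held nearly equal, so the difference follows control reads. The difference between the top and lowest decile, 2.15, was 0.95 at the stricter q, where weak events are left out, and 2.91 with the rank by IP minus control. The share of IP reads in the top decile, 29.3%, was 27.4% at the stricter q and 29.2% without events of 40 or more control reads. The share near AP-1, 67.6%, was 75.5% at the stricter q, 76.4% with 30 IP reads, 50.04% within 50 bp, 77.7% within 250 bp, 55.0% for FRA2 alone and 59.0% for JUND alone (both added). Merging at 100 bp changed no result beyond its interval, since it joined 3 pairs. Depth limits single folds, since the median event had 4.3 control reads.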

Other observations

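Spacings within 550 bp favoured multiples of 5 bp. They made up 36.7% of the nearest distances of SOX2 events in that range, 48.6% of those of FRA2 and 42.5% of those of JUND, against 19.6%, 19.9% and 20.05% beyond 1 kb.

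The closest SOX2 events, chosen after their values were seen, were a pair 1 bp apart on chromosome 9, at positions 41397448 and 41397449, with 105.2 and 105.8 IP reads against 2.1 and 2.2 control reads. At 93 bp, chromosome 4 positions 82156745 and 82156838 held 150 and 177.6 IP reads against 0.1 and 0.3 control reads. At 100 bp, chromosome 4 positions 58415050 and 58415150 held 133.9 and 134.1 IP reads, while their control reads were 0.2 and 6.2.

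The single event on chromosome M, at position 12721, had 131.3 IP reads against 28.9 control reads, a 4.54-fold ratio (2.95 to 7.07).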
